A study of Rattus norvegicus with 9 samples.

Results

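The rat microRNAs (miRNAs) rno-miR-184, rno-miR-224-5p and rno-miR-149-5p, below without the species prefix, are described here across 9 small RNA libraries of cultured rat cartilage progenitor cells. They are 3 of the 726 rows of the deposited table, selected on their high read levels in the shear-stressed libraries and taken by name, and all 3 were among the 439 miRNAs kept by the filter on low counts. The cells were primary wild-type cultures from condylar cartilage. The groups were passage 9 cells (P9), the replicative senescence group of the series; passage 3 cells under flow fluid shear stress (FFSS); and passage 3 cells as the control (P3), with 3 libraries each. The strain and age of the rats are not stated in the labels, nor are the strength and duration of the flow. Nothing there tells whether the replicates of a group were separate cultures or animals, and p-values then measure only a spread between samples that may be technical.

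A miRNA is cut from a hairpin-shaped precursor, and the mature strand guides Argonaute proteins to messenger RNAs that pair with its seed, bases 2 to 8. The targeted transcripts are then degraded or translated less. Many miRNAs share a hairpin cluster or a seed with relatives, whereas these 3 come from separate hairpins. miR-184 is best known from the cornea and lens of the eye, where a seed variant in human families causes corneal thinning and cataract. miR-224 is known from mouse ovarian granulosa cells, where TGF-β induces it and it targets Smad4, a mediator of TGF-β signalling. miR-149 has been reported as reduced in human osteoarthritic chondrocytes, and it targets transcripts of the inflammatory cytokines TNF, IL-1β and IL-6.

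The mature sequences are printed because they show that the 3 miRNAs are unrelated by seed; capitals mark bases 2 to 8, and the sequences are from RefSeq (build GRCr8).
miR-184: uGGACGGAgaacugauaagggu
miR-224-5p: cAAGUCACuagugguuccguuu
miR-149-5p: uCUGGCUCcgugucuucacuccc
A messenger RNA site that pairs with the seed of miR-184 reads UCCGUCC. For miR-224-5p such a site reads GUGACUU, with fewer G and C bases. For miR-149-5p it reads GAGCCAG. Of the 693 mature rat miRNAs with a RefSeq entry, 0 others carry any of these seeds. The longest runs of bases shared by miR-224-5p and miR-149-5p are 5 bases long, and there are 2 of them. miR-184 shares at most 3 bases in a row with either. G and C make up 50% of miR-184, 45.5% of miR-224-5p and 60.9% of miR-149-5p.

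The hairpins are printed to show which arm is the mature strand, in capitals.
Mir184, chr8:99222982-99223058, minus strand: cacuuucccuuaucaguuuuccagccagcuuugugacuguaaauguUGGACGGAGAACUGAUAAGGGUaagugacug
Mir224, chrX:155107130-155107211, minus strand: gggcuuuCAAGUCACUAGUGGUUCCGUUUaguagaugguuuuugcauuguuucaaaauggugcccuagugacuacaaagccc
Mir149, chr9:100861800-100861888, plus strand: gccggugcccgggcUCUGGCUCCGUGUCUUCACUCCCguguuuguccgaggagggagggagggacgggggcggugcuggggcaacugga
The coordinates are those of GRCr8, while the submitters' processing notes name Rnor_6.0. miR-184 comes from the 3′ arm of its hairpin, and the other members come from the 5′ arm. Mir184 lies within no other gene of the RefSeq table, between the protein-coding genes Ankrd34c and Rasgrf1. Mir224 lies within Gabre, which encodes the epsilon subunit of the GABA-A receptor, on the same strand. Mir149 lies within the span of Gpc1, which encodes the heparan sulfate proteoglycan glypican-1. Whether the positions are intronic is not given in the tables used here. For each of the 3, 0 other hairpins of the RefSeq table lay within 10 kb, and the nearest lay 15.4 Mb from Mir184, 0.374 Mb from Mir224 and 17 Mb from Mir149. The hairpin of miR-452, taken up below, has no entry in that table and is not part of these counts and distances.

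The libraries held between 2878910 (FFSS replicate 1) and 8862560 (P3 replicate 3) miRNA reads. The fewest reads behind a value were 159 for miR-184, 279 for miR-224-5p and 507 for miR-149-5p, where counting error alone is 7.93%, 5.99% and 4.44%. The SD between replicates, as a share of the mean, was 111%, 68.2% and 107% in P9, 77.9%, 25.4% and 39.6% in FFSS and 9.11%, 10.1% and 17.5% in P3, in the same order of miRNAs, and so was above that counting error. Levels are read counts scaled to the library's miRNA total (CPM, the usual count per 1e6 reads). The cartilage miRNAs miR-140 and miR-455, which check the labelled cell type, were summed over their 4 arms. The sums were 3847, 3541 and 2590 CPM in P9, 7202, 6841 and 6077 CPM in FFSS and 6987, 4150 and 7370 CPM in P3. P9 replicate 3 thus had the lowest sum of the 9 libraries, and within P9 each of the 4 arms was lowest there. P9 replicate 3 stood apart from its group. Across the 439 miRNAs its log2 levels correlated at 0.963 and 0.969 with P9 replicates 1 and 2, which correlated at 0.995 with each other. With P3 replicates 1, 2 and 3 it correlated at 0.964, 0.976 and 0.954, against 0.967 to 0.972 for the other P9 libraries. FFSS replicate 1 correlated at 0.967 and 0.977 with the other FFSS libraries, which reached 0.99 with each other. miRNAs are not independent replicates, so these values only describe the libraries.

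miR-184 had 358, 71.2 and 145 CPM in the FFSS libraries, 20.9, 20.2 and 131 CPM in the P9 libraries and 23.2, 26.7 and 27.6 CPM in the P3 libraries. Each FFSS library lay above each P3 library, with FFSS replicate 1 far above FFSS replicate 2. P9 replicates 1 and 2 lay just below the P3 range, while P9 replicate 3 lay inside the FFSS range. By rank, miR-184 was between the 86th and 142nd most abundant row in FFSS and between the 203rd and 234th in P3.

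miR-224-5p had 667, 404 and 641 CPM in FFSS, 38.9, 35.5 and 109 CPM in P9 and 202, 167 and 198 CPM in P3. The 3 groups did not overlap: the FFSS libraries were all above the P3 libraries and the P9 libraries all below them. P9 replicate 3 was again the highest of its group.

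miR-149-5p, the most abundant of the 3, had 881, 1866 and 2073 CPM in FFSS, 66.6, 68 and 394 CPM in P9 and 750, 551 and 572 CPM in P3. The order of the groups was that of miR-224-5p, again with no overlap. Here FFSS replicate 1 was the lowest FFSS library, only slightly above P3 replicate 1, whereas for miR-184 and miR-224-5p it was the highest. P9 replicate 3 was the highest P9 library and the closest to P3. In FFSS it ranked between 44th and 54th in a library, against 64th to 66th in P3.

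**Figure D1:**
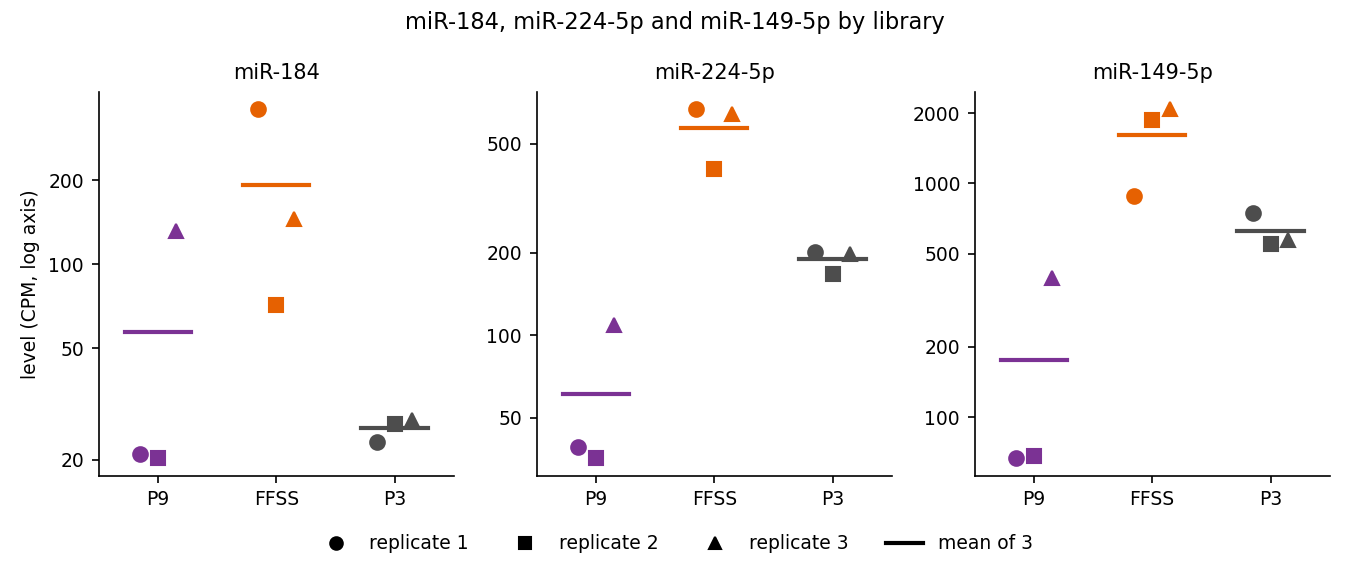
Level of miR-184, miR-224-5p and miR-149-5p in CPM (log axis) in each P9, FFSS and P3 library; symbols are replicates and bars are means of 3 libraries. The FFSS libraries lie above the P3 libraries in all panels, and P9 replicate 3 lies above the other P9 libraries, at 131, 109 and 394 CPM.

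Because high levels under shear stress chose these miRNAs, the FFSS values are given with no test. miR-184 averaged 191 ± 149 CPM in FFSS and 25.8 ± 2.35 CPM in P3 (SD, n = 3 each), a log2 fold change of 2.87 (SE 0.78). miR-224-5p averaged 571 ± 145 CPM in FFSS and 189 ± 19 CPM in P3, a log2 fold change of 1.55 (SE 0.44). miR-149-5p averaged 1607 ± 637 CPM in FFSS and 625 ± 109 CPM in P3, a log2 fold change of 1.31 (SE 0.60). In the order of log2 fold changes over the 439 miRNAs these were 3rd, 20th and 30th from the top. All 3 of the 3 had every FFSS library above every P3 library, as did 18.9% of the 439 miRNAs. Without FFSS replicate 1 the log2 fold change of miR-184 was 1.80, while miR-224-5p and miR-149-5p stood at 1.24 and 1.46. In tissue or culture RNA, a change in the share of cells that make a miRNA and a change of its level per cell cannot be told apart.

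Passage 9 against passage 3 uses no shear-stressed library in its group means, and asks how the same miRNAs stand in replicative senescence. miR-224-5p averaged 61.3 ± 41.8 CPM in P9 and 189 ± 19 CPM in P3 (SD, n = 3 each; log2 fold change -1.52, SE 0.44, edgeR adjusted p = 0.0597). miR-149-5p averaged 176 ± 189 CPM in P9 and 625 ± 109 CPM in P3 (log2 fold change -1.68, SE 0.61, edgeR adjusted p = 0.131). miR-184 averaged 57.5 ± 64 CPM in P9 and 25.8 ± 2.35 CPM in P3 (log2 fold change 1.26, SE 0.74, edgeR adjusted p = 0.456). The count of the 3 that passed was 0 in this edgeR quasi-likelihood test, adjusted by Benjamini-Hochberg over the 439 miRNAs, where 7.29% of all miRNAs passed. At an unadjusted p under 0.05 there were 2, miR-224-5p and miR-149-5p, where 17.3% of all miRNAs stood. DESeq2 called 1 of the 3, miR-224-5p (adjusted p = 0.0135), and 10.5% of all miRNAs. With limma-voom 2 were called, miR-224-5p (0.0217) and miR-149-5p (0.0273), and 7.52% of all. For 2 of the 3, the same pair, every P9 library lay below every P3 library, as for 14.1% of the 439 miRNAs.

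These values turned on P9 replicate 3, whose level was 6.4-fold the mean of P9 replicates 1 and 2 for miR-184, 2.94-fold for miR-224-5p and 5.86-fold for miR-149-5p. Without it, miR-224-5p was lower in P9 by a log2 fold change of -2.33 (SE 0.34, edgeR adjusted p = 0.00028), and miR-149-5p by -3.18 (SE 0.34, edgeR adjusted p = 2.39e-05). In that fit 5.54% of 451 miRNAs were lower past the threshold. The value of miR-184 changed sign without P9 replicate 3, to -0.33 (SE 0.58, edgeR adjusted p = 0.804). With P9 replicate 1 or P9 replicate 2 left out instead, miR-224-5p stood at -1.27 and -1.20 and miR-149-5p at -1.32 and -1.25. The edgeR adjusted p was then 0.156 and 0.252 for miR-224-5p and 0.249 and 0.39 for miR-149-5p. On a scale where 0 is the mean log2 level of P9 replicates 1 and 2 and 1 is that of P3, P9 replicate 3 lay at 0.73 for miR-224-5p and 0.85 for miR-149-5p. Over the 51 miRNAs called without that library its median position was 0.40 (quartiles 0.08 and 0.86), so both values were nearer to P3 than the median.

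**Figure D2:**
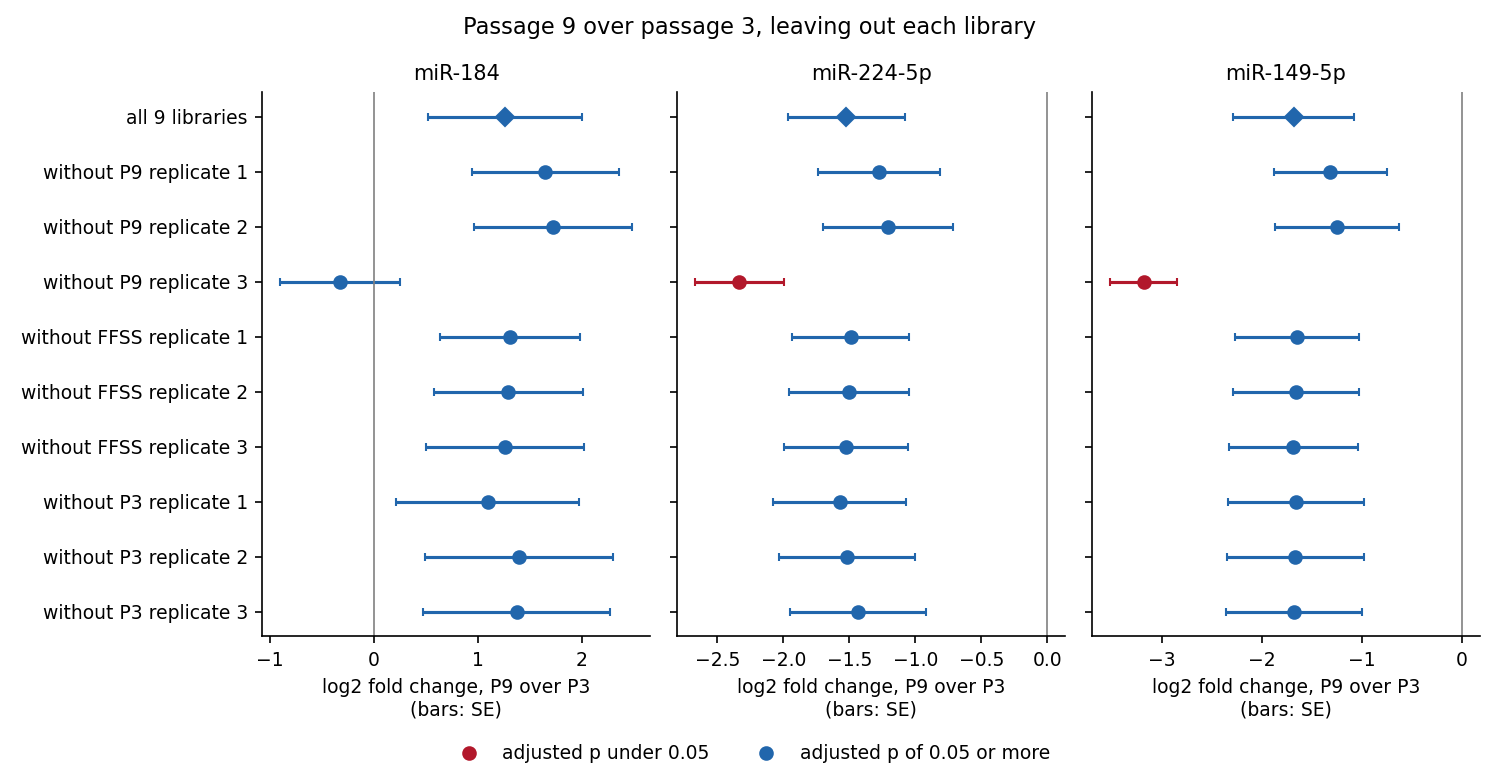
Log2 fold change of P9 over P3 with its standard error for each of the 3 miRNAs, in the fit of all 9 libraries (diamond) and in the 9 fits that leave out 1 library each. Without P9 replicate 3 miR-224-5p and miR-149-5p pass the test (red), at -2.33 and -3.18, and miR-184 moves to -0.33.

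Set side by side, the passage 9 and the shear-stressed cells differed most for miR-224-5p and miR-149-5p, whose mean CPM in FFSS was 9.31-fold and 9.12-fold that in P9. For miR-184 it was 3.33-fold. High FFSS levels chose these miRNAs, so the differences are partly built in by that choice and are given with no test. The FFSS libraries lay above all P9 libraries for miR-224-5p and miR-149-5p, as for 19.8% of the 439 miRNAs. For miR-184 P9 replicate 3, at 131 CPM, lay above FFSS replicate 2, at 71.2 CPM.

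Ratios between members within a library do not depend on the scaling between libraries. Reads of miR-224-5p per read of miR-149-5p were 0.584, 0.521 and 0.278 in P9, 0.757, 0.216 and 0.309 in FFSS and 0.27, 0.304 and 0.345 in P3. FFSS replicate 1 and P9 replicates 1 and 2 lay above the P3 range. Reads of miR-184 per read of miR-149-5p were 0.314, 0.297 and 0.334 in P9, 0.406, 0.0381 and 0.0698 in FFSS and 0.0309, 0.0485 and 0.0483 in P3. All P9 libraries were above all P3 libraries in this ratio, and P9 replicate 3 lay close to the other P9 libraries. Reads of miR-184 per read of miR-224-5p, at 0.537, 0.57 and 1.2 in P9, 0.537, 0.176 and 0.226 in FFSS and 0.115, 0.16 and 0.14 in P3, were lowest in P3.

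Some miRNAs of other tissues were high in the same libraries as miR-184, and others were not. The liver miRNA miR-122-5p had 3.94, 3.43 and 22.9 CPM in P9, 51.4, 15.5 and 30.5 CPM in FFSS and 9.87, 11.7 and 10.2 CPM in P3. The 5 muscle miRNAs summed to 167, 151 and 534 CPM in P9, 538, 189 and 282 CPM in FFSS and 145, 158 and 141 CPM in P3. Most of this sum was miR-1b, with 462 CPM in P9 replicate 3 and 457 CPM in FFSS replicate 1. miR-206-3p did not follow it in P9, at 18.4, 8.01 and 9.78 CPM, and miR-133b-3p stayed at 0.347 to 1.54 CPM over the 9 libraries. For miR-122-5p and for the muscle sum, as for miR-184, FFSS replicate 1 was the highest library, and FFSS replicate 3 and P9 replicate 3 were above FFSS replicate 2. The 6 blood miRNAs summed to 69.5, 301 and 307 CPM in P9, 592, 167 and 390 CPM in FFSS and 136, 156 and 75.7 CPM in P3. In P9 this sum was as high in replicate 2 as in replicate 3, whereas miR-184 was not. Of the blood set, miR-144-3p had 0 CPM in all P3 libraries and P9 replicate 3, and miR-223-3p had 0 CPM in FFSS replicates 1 and 2 and P9 replicate 3. The 7 epithelial miRNAs, markers of the cell class in which miR-184 is best known, summed to 77.7, 75.4 and 25.2 CPM in P9, 226, 90.4 and 155 CPM in FFSS and 96.4, 81.1 and 102 CPM in P3. Their sum was thus high in FFSS replicate 1 but lowest of all in P9 replicate 3, where miR-205, miR-429 and miR-141-3p were at 0 CPM. Outside P9 replicate 3 most of the sum was miR-203a-3p, which had 45, 44.1 and 7.95 CPM in P9. miR-200b-3p alone of the set had its highest P9 level in replicate 3, with 5.91, 5.97 and 8.32 CPM in P9. The 2 endothelial miRNAs summed to 297, 275 and 491 CPM in P9, 695, 556 and 590 CPM in FFSS and 406, 390 and 386 CPM in P3. As for miR-184, FFSS replicate 1 was the highest library and P9 replicate 3 the highest of its group. Unlike for miR-184, P9 replicate 3 stayed below all FFSS libraries. Most of the endothelial sum was miR-126a-3p, with 489 CPM in P9 replicate 3. miR-126a-5p went the other way in P9, at 12.7, 6.36 and 1.59 CPM. The 4 miRNAs of the nervous system summed to 978, 958 and 2366 CPM in P9, 490, 1196 and 1563 CPM in FFSS and 1245, 1519 and 717 CPM in P3. This sum, mostly miR-128-3p and miR-129-5p, was lowest of all in FFSS replicate 1, where miR-184 was highest. The scarce miR-124-3p alone of this set went the other way, with 1.39 CPM in FFSS replicate 1 and 0 to 0.706 CPM elsewhere. Whether RNA of other tissues, or reads carried over from other samples, contributed to the miR-184 values was not tested.

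**Figure D3:**
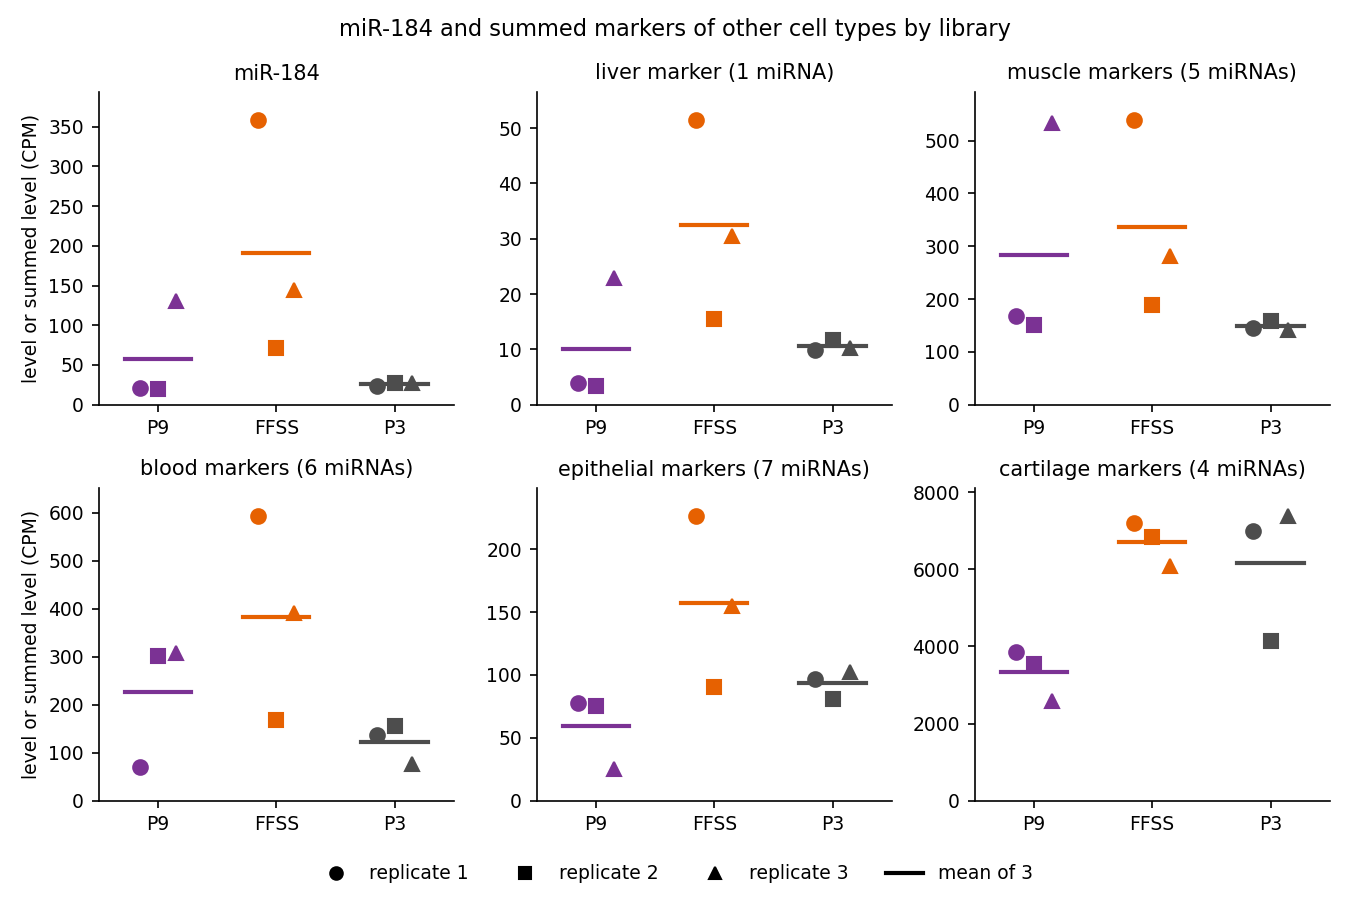
Level of miR-184 and summed levels of fixed marker miRNAs of liver, muscle, blood, epithelium and cartilage, in CPM, in each P9, FFSS and P3 library; symbols are replicates and bars are means of 3 libraries. FFSS replicate 1 is the highest library for miR-184 (358 CPM), the liver marker (51.4 CPM), and the muscle (538 CPM), blood (592 CPM) and epithelial (226 CPM) sums, and P9 replicate 3 is high for miR-184, liver and muscle but lowest for the epithelial sum (25.2 CPM).

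The other arms of the hairpins were looked for as a second readout. The complementary arm of miR-224, miR-224-3p, is printed with its seed in capitals to set it beside the mature strand.
miR-224-3p: aAAUGGUGcccuagugacuaca
It had 1 read in P9, 9 in FFSS and 11 in P3 over the 3 libraries of each group. Its share of the reads of both arms was 0.068% in P9 (exact 95% binomial interval 0.00172% to 0.378%), 0.124% in FFSS (0.0565% to 0.234%) and 0.233% in P3 (0.116% to 0.416%). The intervals, which cover counting error only, overlap, so a change of arm was not detectable at this depth. With fewer than 20 reads on average, this arm was left out of any test. miR-149-3p was not among the 726 rows and is not analysed here.

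miR-452-5p is set beside miR-224-5p because, in the human genome, its hairpin lies next to that of miR-224 in the same host gene; it was chosen after its values were seen. It had 7.62, 5.47 and 8.19 CPM in P9, 46.2, 36 and 35.9 CPM in FFSS and 27.9, 18.9 and 36.7 CPM in P3. Every P9 library was below every P3 library, and P9 replicate 3 lay close to the other P9 libraries, unlike for miR-224-5p. It averaged 7.09 ± 1.44 CPM in P9 and 27.8 ± 8.9 CPM in P3 (SD, n = 3 each), a log2 fold change of -1.91 (SE 0.37), given with no test because of that choice. Under shear stress its log2 fold change was 0.47 (SE 0.35), and the FFSS and P3 libraries overlapped. Reads of miR-224-5p per read of miR-452-5p were 5.1, 6.49 and 13.4 in P9, 14.4, 11.2 and 17.8 in FFSS and 7.25, 8.87 and 5.39 in P3. All FFSS libraries were above all P3 libraries in this ratio. Because miR-224-5p was chosen for its FFSS levels and miR-452-5p after its values were seen, this order only describes the libraries.

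**Figure D4:**
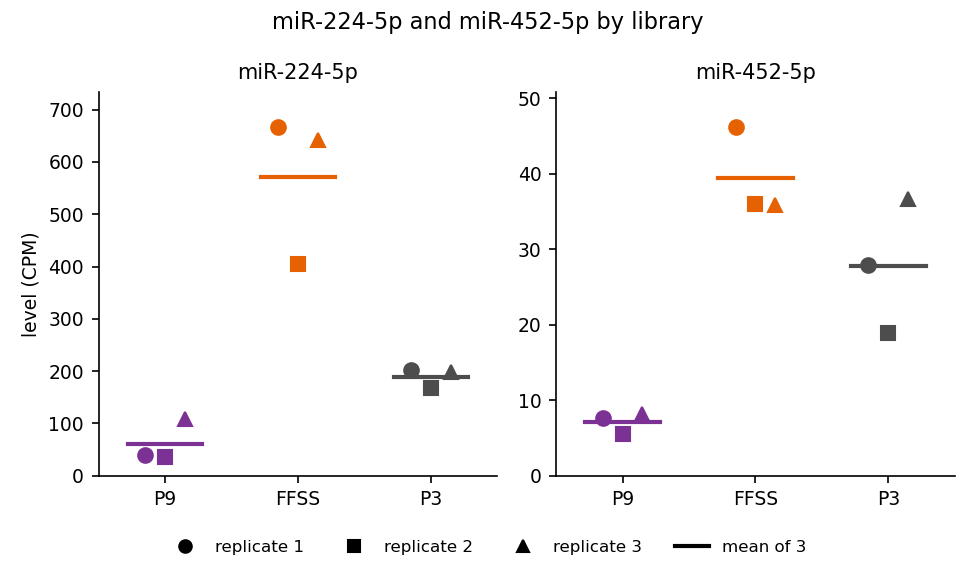
Levels of miR-224-5p and miR-452-5p in CPM in each P9, FFSS and P3 library; symbols are replicates and bars are means of 3 libraries. Both are lowest in P9, at 61.3 and 7.09 CPM on average, and the FFSS and P3 libraries separate for miR-224-5p but not for miR-452-5p.

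The miRNAs of most like pattern were taken as those with the smallest root mean square (RMS) difference of log2(CPM + 1) profiles over the 9 libraries, each centred on its own mean. The points share libraries and depth, and the measure has no test. The measure also takes in the FFSS libraries, whose high levels chose the members. Part of the likeness between members may follow from that choice. miR-224-5p and miR-149-5p were each other's 2nd most like among 438 others, with a difference of 0.57 log2 units, against a median of 1.49 over all others for miR-224-5p and 1.73 for miR-149-5p. Without P9 replicate 3, miR-149-5p was no longer among the 3 most like miR-224-5p, whereas miR-224-5p stayed among the 3 most like miR-149-5p. The most like of both was miR-195-3p, the complementary strand of a miRNA of the miR-15/16 family, at 0.52 and 0.53. miR-195-3p had 2.63, 3.56 and 14.6 CPM in P9, 51.1, 47.6 and 51.3 CPM in FFSS and 41.4, 28.2 and 41.2 CPM in P3. Like both members, it was lowest in P9 replicates 1 and 2 and intermediate in P9 replicate 3.

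The next for miR-224-5p was miR-3557-5p (0.59), whose counts lay within 0.0193% of those of miR-378a-3p in each library, so that reads of the pair cannot be assigned to either. The next for miR-149-5p was miR-708-3p (0.66), from the hairpin named in the series title, which had 10.9, 11.7 and 22.1 CPM in P9, 49.3, 110 and 156 CPM in FFSS and 83.1, 86 and 66.7 CPM in P3. Its FFSS libraries lay on both sides of the P3 range, whereas those of miR-149-5p were all above it.

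The pattern of miR-184 was different. Its difference was 1.09 from miR-224-5p and 1.46 from miR-149-5p, which placed them 40th and 178th among the 438. Its most like miRNAs were miR-122-5p (0.56), the liver miRNA described above, miR-122b (0.58) and miR-187-3p (0.69). miR-122b counts differed from those of miR-122-5p by 4.65% to 25.6%, and the labels do not say how reads were assigned to either of them. miR-187-3p had 4.2, 3.43 and 8.8 CPM in P9, 25.7, 18.5 and 22.1 CPM in FFSS and 5.11, 5.05 and 5.53 CPM in P3, so its FFSS libraries were all above the rest and closer together than those of miR-184.

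**Figure D5:**
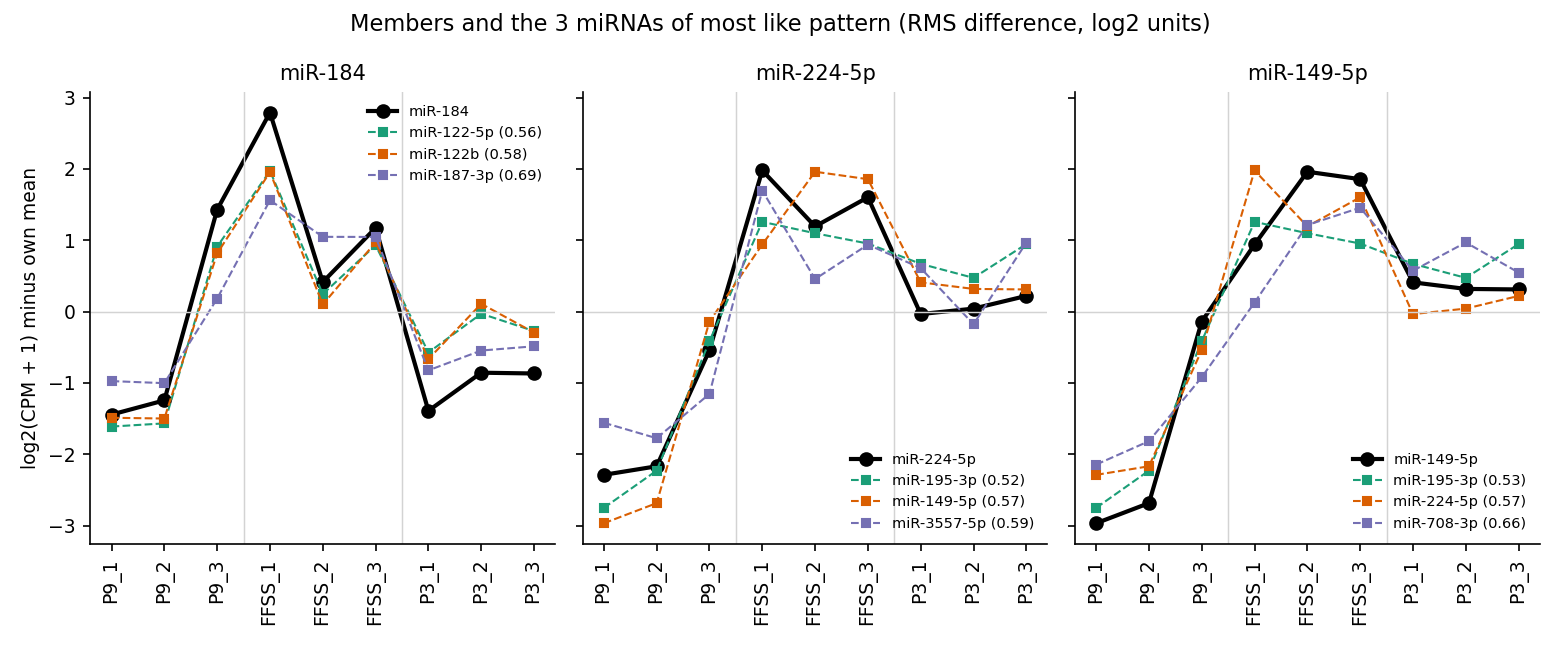
Log2(CPM + 1) minus the miRNA's own mean in each of the 9 libraries for miR-184, miR-224-5p and miR-149-5p (black) and the 3 miRNAs of most like pattern (colours, with the RMS difference in log2 units). miR-224-5p and miR-149-5p share miR-195-3p as the most like (0.52 and 0.53), and miR-184 runs with miR-122-5p (0.56).

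Other miRNAs reported to respond to shear or stretch were read from a list of 18, all of them tested. In P9, 3 of the 18 rose and 1 fell (median log2 fold change 0.06, the same as over all 439 miRNAs), where 3.87% of all miRNAs were higher and 3.42% lower past the threshold. The number that rose was 1 without P3 replicate 1, 2 or 3, and the 1 that fell, miR-146a-5p, was lost without any P9 or P3 library. miR-143-3p, a smooth muscle and fibroblast miRNA, had 178130, 151322 and 133849 CPM in P9, against 60461, 68796 and 56979 CPM in P3 (log2 fold change 1.35, SE 0.24, edgeR adjusted p = 0.00348). The paralogs miR-222-3p and miR-221-3p, both known to repress the cyclin-dependent kinase inhibitor p27, rose with log2 fold changes of 1.07 (adjusted p = 0.0134) and 0.93 (adjusted p = 0.0364). miR-222-3p lost its call without P3 replicate 1, 2 or 3 (adjusted p = 0.073, 0.0565 and 0.09). miR-221-3p lost it without P9 replicate 1 or 2 (0.153 and 0.0907), FFSS replicate 3 (0.0569) or P3 replicate 1, 2 or 3 (0.139, 0.0885 and 0.138), and also with library size only (0.0812), limma-trend (0.0955) and the replicate block (0.0723).

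In FFSS, 2 of the 18 rose and 3 fell (median log2 fold change -0.09, against 0.02 over all), where 6.83% of all miRNAs were higher and 13.7% lower. With 1 library left out the number that rose was 0 (without P3 replicate 1 or 3) or 1 (without P3 replicate 2, FFSS replicate 1 or P9 replicate 3), and the number that fell was 6 without FFSS replicate 1 or P9 replicate 3. The replicate block gave 0 that rose. miR-145-5p, transcribed with miR-143, fell to 1443, 2821 and 1876 CPM in FFSS, against 6598, 5815 and 5462 CPM in P3 (log2 fold change -1.57, SE 0.34, adjusted p = 0.00944). Its partner miR-143-3p was not called in FFSS. It had 41488, 67545 and 69750 CPM in FFSS, against 60461, 68796 and 56979 CPM in P3, and these libraries overlapped. miR-19a-3p, of a proliferation-linked cluster, was scarce, with 0 to 0.513 CPM in FFSS, against 2.26 to 4.28 CPM in P3, and fell by 3.39 on the log2 scale (adjusted p = 0.00985). This value rests on 0, 2 and 2 reads in FFSS, against 36, 17 and 25 reads in P3, and was -1.69 with limma-trend. miR-10a-5p, from a Hox cluster, had 546, 71.4 and 145 CPM in FFSS, against 39.6, 47.6 and 41.6 CPM in P3 (log2 fold change 2.57, SE 0.63, adjusted p = 0.0167). Like miR-184 it was highest in FFSS replicate 1, without which its value was 1.07 and its call was lost (adjusted p = 0.0607), as it was without P3 replicate 1 (0.082) or P3 replicate 3 (0.0544) and with the replicate block (0.0516).

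Of 17 miRNAs reported in chondrocytes or osteoarthritis, 15 were tested. In P9 1 of them, miR-146a-5p, was called, and it fell (list median log2 fold change -0.26, against 0.06 over all), beside the 3.42% of all miRNAs that were lower and the 3.87% that were higher. With DESeq2, in a fit of only P9 and P3 or without FFSS replicate 1 or 2, 2 of them fell, and with no filter or without P9 replicate 3, 1 rose. miR-146a-5p, which damps NF-kB signalling, had 15.8, 15.5 and 47.6 CPM in P9, against 401, 399 and 392 CPM in P3 (log2 fold change -3.82, SE 0.99, edgeR adjusted p = 0.0419). It lost this call without any P9 or P3 library (adjusted p = 0.0947 to 0.249), with no filter (0.212) and with the replicate block (0.0889). In FFSS 3 of the 15 rose and 2 fell (list median 0.06, against 0.02 over all), beside the 6.83% of all miRNAs that were higher and the 13.7% that were lower. The number that rose was 0 without P3 replicate 1, 2 or 3, with no filter or with the replicate block, and 1 without P9 replicate 1 or 2 or FFSS replicate 1 or 3 or with TMM computed without the 10 most abundant miRNAs. The number that fell was 1 without any P3 library, P9 replicate 2 or FFSS replicate 2 or 3. miR-146a-5p had 17002, 650 and 3853 CPM in FFSS (log2 fold change 4.20, adjusted p = 0.0198), and without P3 replicate 1, 2 or 3 or P9 replicate 3 its call was lost (0.0749, 0.0854, 0.09 and 0.0511). Without FFSS replicate 1 its value was 2.20, and no filter (0.0946), the replicate block (0.0834) and a fit of only FFSS and P3 (0.0664) also ended the call. miR-146a-5p and miR-10a-5p thus shared with miR-184 a high FFSS replicate 1 and a low FFSS replicate 2, whereas miR-149-5p had its lowest FFSS value in replicate 1. miR-23a-3p, of a cluster with miR-27a and miR-24, had 7612, 5405 and 7625 CPM in FFSS, against 4927, 2911 and 3919 CPM in P3 (log2 fold change 0.79, adjusted p = 0.0392). Its call was lost in 7 of the 9 fits that left out 1 library (adjusted p = 0.0753 to 0.188), those without P9 replicate 1 or 2, FFSS replicate 1 or 3, or any P3 library. It was also lost with library size only (0.0637), TMM computed after dropping the 10 most abundant miRNAs (0.0538), no filter (0.126), limma-trend (0.0617) and the replicate block (0.0564).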

How the data were processed

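Small RNA from total RNA of cartilage progenitor cells (9 libraries) had been sequenced from 1 end. The deposited table gave a read count per miRNA row and library, per the file headers, and a deposited TPM value, equal to the count over the library total (largest difference 4.85e-05), with no length term. The submitters' processing notes name Bowtie and the build Rnor_6.0; which program counted reads, which annotation was used and how 91 rows were predicted is not stated there. Counts as deposited were filtered with filterByExpr (439 of 726 rows; 0.0069% of reads removed), scaled by TMM and tested with the robust quasi-likelihood test of edgeR 4.0.16 (limma 3.58.1, R 4.3.3) in 1 model of all 9 libraries, with Benjamini-Hochberg adjustment and a threshold of 0.05. All adjusted p-values come from this test unless another tool is named. The procedure was tested on simulated counts with 200 changed miRNAs, the same spread for every miRNA and no outlying library. It does not show how the test behaves with a library like P9 replicate 3.

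Mature and hairpin sequences were matched by name in RefSeq (GRCr8); 578 of 635 annotated rows and all 3 members matched. The members and lists were chosen with earlier results of these data known. Named are the 3 members, other arms, hairpins within 10 kb, miRNAs of the same seed, the 3 most like patterns per member, and up to 3 called miRNAs per list and comparison with the smallest p. The fixed markers of other cell types are named with levels only, and miR-452-5p was added after its values were seen. The alternatives were other scalings and filters, limma-voom, DESeq2 1.42.0, limma-trend with log2(TPM + 1), fits of 2 groups, a replicate block and leaving out each library. The planned tests of arm ratios for miR-224 and miR-149 were not run, because miR-224-3p had too few reads and miR-149-3p was not among the 726 rows. Intervals are exact binomial (Python 3.11.15, scipy 1.17.1).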

Additional observations from a re-analysis of the deposited data

How the results depend on the processing

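For passage 9 over passage 3, the log2 fold change of miR-224-5p, -1.52 and not past the test, passed with library size only (-1.63), no filter (-1.54), TMM computed after dropping the 10 most abundant miRNAs (-1.54), DESeq2 (-1.52), limma-voom (-1.76) and limma-trend (-1.80). miR-149-5p passed with limma-voom (-2.29) and limma-trend (-2.34). With the replicate block both passed, at -1.69 and -2.20. Whether the replicate numbers pair the libraries is not stated in the labels. The correlation of same-numbered libraries' deviations from their group means lay between -0.502 and 0.144. With 3 libraries a group, and with P9 replicate 3 apart from its group, this cannot settle the question. Leaving out each library gave -2.33 to -1.20 for miR-224-5p, -3.18 to -1.25 for miR-149-5p and -0.33 to 1.72 for miR-184, whose sign reversed only without P9 replicate 3; the cause was not tested.

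For FFSS over P3, the values of the 3 miRNAs kept their direction in all 19 alternatives. High FFSS levels chose these miRNAs, so the kept direction follows from that choice and only the sizes are informative. With 1 library left out they were 1.80 to 3.24 for miR-184, 1.24 to 1.68 for miR-224-5p and 1.05 to 1.46 for miR-149-5p. Over all miRNAs, 30 were higher in FFSS, and 15 with no filter, 51 in a fit of only FFSS and P3, and 9 with the replicate block; leaving out 1 library gave 3 to 53. The 60 lower became 39 with a mean of at least 50 counts and 32 to 94 with 1 library left out. In P9 17 were higher (8 to 26 with 1 library left out) and 15 lower (7 to 25). miR-143-3p in P9 and miR-145-5p in FFSS kept their calls in all 19 alternatives. Under library size only, the 3 most like patterns were the same for each member; without P9 replicate 3, 2 of 3 were shared for miR-184, 1 for miR-224-5p and 2 for miR-149-5p. The patterns lost for miR-224-5p included that of miR-149-5p.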
